A study of Mus musculus with 18 samples.

Results

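The 10 growth-factor-inducible genes described here, which the arrays report with 17 probe sets, are Egr1, Egr2, Egr3, Klf2, Klf4, Klf6, Klf10, Ier2, Arc and Myc. They were chosen by name with earlier results of these data known, so their counts beside those of all probe sets are a description. Every probe set annotated to 1 of the 10 genes was taken out of 45037 probe sets that are not array controls. Of the 17, 16 were among the 18958 probe sets kept for testing (log2 level of at least 5 on at least 2 arrays), and each gene had at least 1 kept. The dropped probe set is a second one for Egr3, which read 1.36 to 1.39 on all 18 arrays. Values are log2 of the deposited intensities, and each gene is given by its brightest probe set unless another is named.

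The RNA came from mouse embryonic fibroblasts, primary cultures of E12.5 to E14.5 embryos without head, liver and blood clots, grown with 10% serum. The cells carried 1 copy (heterozygous) or only copies (homozygous) of an allele described in the labels as constitutively active, or none (wt), and each genotype was measured untreated and after 5 ng/mL TGFb1 for 4 h and for 24 h. By the title the point mutation lies in TGFBR1, the type I receptor for TGFb, while the design text names TGFb1 instead, and the allele is called only the mutant here. Each of the 9 groups has 2 arrays. The design text calls the untreated cells vehicle-treated and no label gives them a time, so the same 2 untreated arrays serve both times of a genotype, and TGFb1 and hours in culture cannot be told apart. The labels do not state whether both arrays of a group come from separate cultures, though sex-linked genes differed within each wt and each homozygous pair. The p-values measure the spread between these arrays only.

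The 10 genes belong to the immediate early class, whose transcription starts within minutes of a signal without new protein synthesis, in large part through serum response factor and its partners at CArG boxes of their promoters, and whose messages are short-lived. EGR proteins are zinc finger activators that bind a GC-rich site and recruit the NAB corepressors, which feed back on them. KLF proteins bind CACCC and GC boxes: KLF2 and KLF4 are known for quiescence and endothelial and epithelial differentiation, KLF6 for injury responses, and KLF10, first described as TGFb-inducible early gene TIEG1, for reinforcing Smad signalling. IER2 is a small nuclear protein, ARC a cytoskeletal and synaptic protein best known from neurons, and MYC a driver of growth that TGFb is known to repress in epithelial cells.

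The arrays read as fibroblasts: the 10 fibroblast markers were all kept and summed to 184200 to 259400 on the linear scale. Their sum was lower at 4 h than untreated without overlap in both mutants, at 201400 to 207500 against 235100 to 246500 in heterozygous and 191400 to 208800 against 255100 to 259400 in homozygous cells, and at 184200 to 199100 against 197600 to 236400 in wt cells, with overlap. The 11 macrophage markers, Csf1r and C1qa among them, were all kept as well and summed to 7277 to 20340 on the mutant arrays, against 847 to 6319 on the wt arrays, and in both mutant genotypes the sums at 4 h lay above those at 24 h, at 10530 to 14540 at 24 h against 15560 to 20340 at 4 h in heterozygous and 7277 to 7598 against 13320 to 13380 in homozygous cells. The 5 epithelial markers, 3 of them kept, summed to 2420 to 3575 at 4 h against 1054 to 1876 untreated in heterozygous cells. In homozygous cells they summed to 2043 to 3051 against 936.6 to 1157. Krt18 made up most of these sums, at 8.92 to 11.76 log2 over the arrays. Epcam read 5.27 to 5.65 and Krt8 2.75 to 5.19. The 7 skeletal muscle markers, 4 of them kept, summed to 1138 to 7248 over all arrays, with Acta1 brightest at 9.36 to 12.66 log2. Their sums were higher in wt than in mutant cells without overlap at each time. Untreated they were 3052 to 3515 in wt, 1701 to 2101 in heterozygous and 1436 to 1630 in homozygous cells. The 5 neural markers, all kept, summed higher at 24 h than untreated without overlap in every genotype, at 9037 to 9744 against 5805 to 6250 in heterozygous, 9024 to 9267 against 6697 to 6811 in homozygous and 7485 to 9691 against 4537 to 6508 in wt cells. Ncam1 (11.62 to 12.92 log2) and Nes (9.64 to 11.12) made up most of that sum, while Sox2 and Sox10 stayed at or under 6.44 and 6.72. All 5 endothelial and both erythroid markers were under log2 5 on every array. The part of other cells in the results below was not tested, and fewer cells of a type and less RNA per cell cannot be told apart. The root mean square SD between the 2 arrays of a group was 0.195 to 0.276 log2 in the mutant groups and 0.335 to 0.411 log2 in the wt groups. Xist, the X-inactivation RNA, was high on 1 array and low on the other of each wt and each homozygous pair, and high on all heterozygous arrays. Each SE below comes from a fit that pools the spread over all 9 groups.

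At 4 h the members that passed the test all rose, and at 24 h most of those that passed fell, with Egr2 as the exception. In heterozygous cells at 4 h, 6 of the 10 genes were higher than in untreated cells and none lower (limma with Benjamini-Hochberg adjustment over all probe sets, adjusted p under 0.05), against 13.8% of all probe sets higher, 12.7% lower and 26.5% either way. In homozygous cells 7 were higher and 0 lower, against 17.4% higher, 17.6% lower and 35% either way, and in wt cells 5 were higher and 0 lower, against 7.64%, 9.48% and 17.1%. Arc, which was kept only through its 4 h arrays, is 1 of each of these counts. Without it 5 of 9, 6 of 9 and 4 of 9 genes were higher in heterozygous, homozygous and wt cells. The median log2 difference of these 9 genes at 4 h was 0.74, 0.69 and 0.66 in the same order of genotypes, beside medians over all probe sets of 0.00309, -0.00293 and -0.044.

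At 24 h, 1 member was higher and 3 lower than untreated in heterozygous cells (background 2.24% higher, 2.84% lower, 5.07% either way). In homozygous cells it was 1 higher and 4 lower (2.25%, 4.18% and 6.44%), and in wt cells 1 higher and 4 lower (4.11%, 5.03% and 9.14%). The comparison of 24 h with 4 h, which does not use the untreated arrays, gave the most calls. All 10 genes were lower at 24 h in heterozygous cells (background 15% lower, 14.1% higher, 29.1% either way), 9 in homozygous cells (18.9%, 14.4% and 33.3%) and 8 in wt cells (15.7%, 16.7% and 32.5%), and none was higher. Arc is again 1 of each count, and its filter fixed that direction. Without it 9, 8 and 7 of 9 genes were lower in heterozygous, homozygous and wt cells. The median difference of 24 h minus 4 h over the 9 genes without Arc was -1.21, -1.32 and -1.1 log2 in heterozygous, homozygous and wt cells. When the 4 wt arrays of a comparison were fitted alone, no member passed in wt cells at 4 h, at 24 h or between both times, while 6, 6 and 8 members had an unadjusted p under 0.05 in limma. In those fits 0, 3 and 0 of all 18958 probe sets passed.

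**Figure D1:**
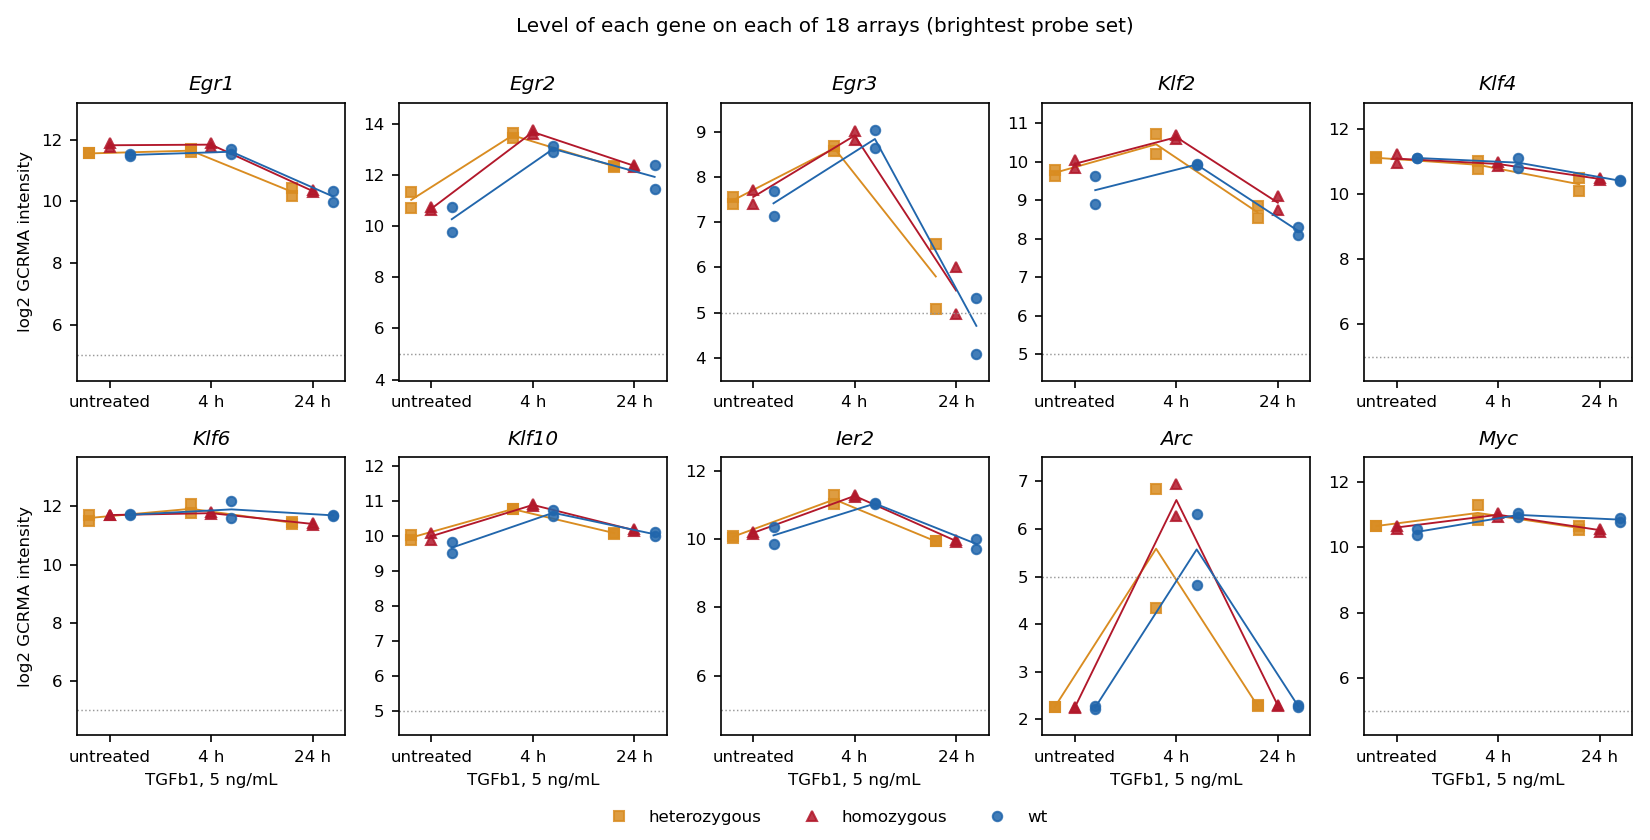
Log2 intensity of the brightest probe set of each of the 10 genes on all 18 arrays (y axis, its range differs by gene), untreated and after 4 h or 24 h of TGFb1 (x axis). Points are arrays, lines join the means of 2 arrays of a genotype, and the dotted line marks log2 5. Of the times shown, Egr2 and Arc are highest at 4 h, while Egr1 and Klf4 lie near the untreated level at 4 h and lower at 24 h. No time before 4 h was measured.

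Egr2, the EGR member known for Schwann cell myelination and hindbrain patterning, had the largest rise of the measurable members at 4 h and was the only member called higher at 24 h. On the heterozygous arrays it read 11.34 and 10.71 untreated, 13.64 and 13.46 at 4 h and 12.37 and 12.31 at 24 h. On the homozygous arrays it read 10.74 and 10.63 untreated, 13.77 and 13.59 at 4 h and 12.32 and 12.39 at 24 h. On the wt arrays it read 10.76 and 9.78 untreated, 12.89 and 13.15 at 4 h and 11.47 and 12.38 at 24 h. In every genotype all arrays at 4 h lie above all arrays at 24 h, and those above all untreated arrays, without overlap. At 4 h Egr2 was higher by 2.53 ± 0.31 log2 in heterozygous (5.76-fold, adjusted p = 0.000183), 2.99 ± 0.31 in homozygous (7.93-fold, 4.68e-05) and 2.75 ± 0.31 in wt cells (6.71-fold, 0.000176), by limma with 2 arrays against 2 and the SE of the fit. These 3 calls held with any 1 array left out. A group left with 1 array in such a fit is assumed to vary like the other groups.

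At 24 h Egr2 was still higher than untreated by 1.32 ± 0.31 log2 in heterozygous (2.49-fold, adjusted p = 0.0282), 1.66 ± 0.31 in homozygous (3.17-fold, 0.00609) and 1.65 ± 0.31 in wt cells (3.14-fold, 0.00597) in the limma fit. These calls rest on single arrays. In heterozygous cells the call was lost without untreated replicate 2 (1.0) or without either 24 h array (1.29 and 1.34), and in homozygous cells without untreated replicate 2 (1.61) or 24 h replicate 2 (1.63). In wt cells it was lost without untreated replicate 2 (1.16) or 24 h replicate 2 (1.19), and the adjusted p with 1 array left out ran as high as 0.262, 0.0564 and 0.0622 in heterozygous, homozygous and wt cells. The second Egr2 probe set gave 2.52, 2.79 and 2.79 at 4 h and 1.2, 1.44 and 1.6 at 24 h, in the same order, all called. Between 24 h and 4 h Egr2 was lower by -1.21 ± 0.31, -1.32 ± 0.31 and -1.10 ± 0.31 log2 (adjusted p = 0.0123, 0.00689 and 0.0183 by limma). These calls were lost in heterozygous cells without 4 h replicate 1 or either 24 h array (-1.30 to -1.12 over the 4 fits), in homozygous cells without 4 h replicate 1 (-1.42 to -1.23) and in wt cells without 4 h replicate 2 or 24 h replicate 1 (-1.55 to -0.64).

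RefSeq (GRCm38.p6) places Egr2 on chromosome 10, and promoter windows were available for 5 of its transcript starts. The annotated gene begins at base 67534469, which lies before all 5 windows, so the windows do not cover its first base. The 250 bases before the starts were searched on both strands, and a CArG box, the site of serum response factor, lies in 4 of the 5 windows but in only 1.47% of the 32851 windows of all genes. Windows 3, 4 and 5 overlap and hold the same box. Windows 2 and 3 are shown because they carry the 2 separate boxes, in capitals, both beginning at base -72 from their start. Window 2 is chr10:67537316-67537565 and window 3 is chr10:67537619-67537868, both on the plus strand.
Egr2 window 2: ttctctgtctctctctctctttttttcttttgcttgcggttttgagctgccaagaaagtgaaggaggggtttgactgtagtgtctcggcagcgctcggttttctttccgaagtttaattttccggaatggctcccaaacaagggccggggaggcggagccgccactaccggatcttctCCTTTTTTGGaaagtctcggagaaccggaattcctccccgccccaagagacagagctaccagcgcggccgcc
Egr2 window 3: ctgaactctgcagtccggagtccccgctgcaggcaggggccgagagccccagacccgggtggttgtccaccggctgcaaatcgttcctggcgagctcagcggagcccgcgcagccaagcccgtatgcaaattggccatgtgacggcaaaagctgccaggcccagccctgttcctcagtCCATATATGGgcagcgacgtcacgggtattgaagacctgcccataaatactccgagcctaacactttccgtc
Window 2 also has 3 matches of the Ets core CCGGAA, the site of the ternary complex factors that partner serum response factor, of which the matches at -131 and -129 overlap each other on opposite strands (12% of all windows hold at least 1). Window 3 has 2 of the cyclic AMP response element core TGACG (17.8%) and 1 of the Smad half-site CAGAC, which 42.2% of all windows hold. A match is a description of these letters and no evidence of binding.

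Egr1, the best studied EGR activator, did not pass the test at 4 h and was lower at 24 h in every genotype. No array was taken earlier than 4 h after TGFb1, so a change that had passed by then was not measured. It read 11.55 and 11.55 untreated, 11.58 and 11.70 at 4 h and 10.43 and 10.17 at 24 h in heterozygous cells. In homozygous cells it read 11.88 and 11.75, then 11.77 and 11.90, then 10.30 and 10.36, and in wt cells 11.48 and 11.52, then 11.68 and 11.53, then 10.33 and 9.98. All 6 arrays at 24 h lie below the other 12. The differences at 4 h were 0.09 ± 0.12, 0.02 ± 0.12 and 0.11 ± 0.12 log2 in heterozygous, homozygous and wt cells, with 95% intervals of -0.17 to 0.35, -0.24 to 0.28 and -0.15 to 0.37, and the homozygous value turned to -0.06 after quantile normalization. At 24 h Egr1 was lower by -1.25 ± 0.12 (0.419-fold, adjusted p = 9.36e-05), -1.48 ± 0.12 (0.358-fold, 3.2e-05) and -1.34 ± 0.12 (0.394-fold, 4.12e-05) in the limma fit. It was also lower at 24 h than at 4 h, by -1.34, -1.50 and -1.45, and all 6 calls held with any 1 array left out.

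Egr3, which shares the EGR site and is known from muscle spindles and lymphocytes, had the widest range of the EGR genes and moved both ways. It read 7.56 and 7.40 untreated, 8.68 and 8.58 at 4 h and 6.52 and 5.08 at 24 h in heterozygous cells. The homozygous values were 7.70 and 7.41, then 9.01 and 8.81, then 4.98 and 6.0, and in wt cells 7.69 and 7.14, then 8.63 and 9.04, then 5.33 and 4.09. The 3 times do not overlap in any genotype, and 1 homozygous and 1 wt array at 24 h lie under log2 5. The wt mean at 24 h is 4.71, so the sizes of the wt differences that use it are uncertain and no fold is given for them. At 4 h the rise passed the test in homozygous cells (1.35 ± 0.47 log2, adjusted p = 0.0416) but not in heterozygous (1.15 ± 0.47, 0.0906) or wt cells (1.42 ± 0.47, 0.0564) by limma, and leaving out any 1 of the 4 homozygous arrays ended the call (1.21 to 1.5). At 24 h Egr3 was lower by -2.07 ± 0.47 in homozygous (0.239-fold, adjusted p = 0.0196) and -2.71 ± 0.47 in wt cells (0.00385), with -1.68 ± 0.47 not passing in heterozygous cells (0.0646), by limma. The homozygous call was lost without either untreated array (-1.92 and -2.21) or without 24 h replicate 1 (-1.55), and the heterozygous value passed without 24 h replicate 1 (-2.40, adjusted p = 0.0279). From 4 h to 24 h Egr3 fell in every genotype, by -2.83 ± 0.47, -3.42 ± 0.47 and -4.13 ± 0.47 in heterozygous, homozygous and wt cells (adjusted p = 0.00122, 0.000342 and 0.000188 by limma), with any 1 array left out too.

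**Figure D2:**
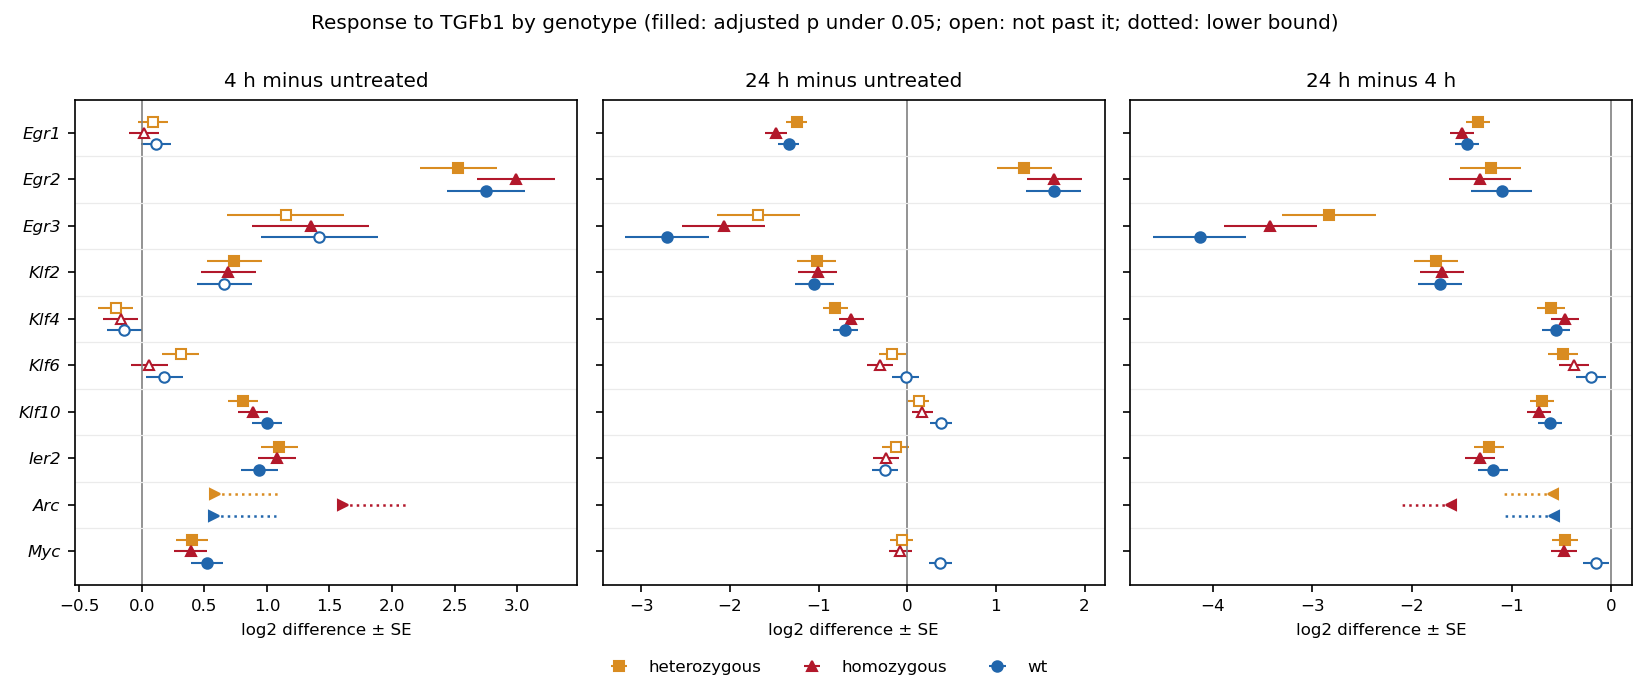
Log2 difference (x axis, point ± SE of the limma fit, 2 arrays against 2) of each gene (rows) for 4 h minus untreated, 24 h minus untreated and 24 h minus 4 h, by genotype (symbols). Filled symbols passed an adjusted p of 0.05, and Arc is drawn at its mean at 4 h set against log2 5, with no value where both groups lay under log2 5. In the right panel every point lies left of 0, and in the middle panel Egr2 lies farthest right.

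Klf2 rose at 4 h in both mutants and fell below the untreated level at 24 h in every genotype. It read 9.79 and 9.64 untreated, 10.20 and 10.71 at 4 h and 8.85 and 8.53 at 24 h in heterozygous cells. In homozygous cells it read 9.84 and 10.06, then 10.59 and 10.69, then 8.76 and 9.12, and in wt cells 8.91 and 9.62, then 9.94 and 9.92, then 8.31 and 8.11. The 3 times do not overlap within any genotype. The difference at 4 h was 0.74 ± 0.22 log2 in heterozygous (adjusted p = 0.0291), 0.69 ± 0.22 in homozygous (0.0321) and 0.66 ± 0.22 in wt cells (0.0605, not called), by limma. The homozygous call was lost with any 1 array left out (0.58 to 0.79), the heterozygous one without either untreated array (0.82 and 0.66) or 4 h replicate 2 (0.48), and the wt value passed without untreated replicate 2 (1.02, adjusted p = 0.00764).

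At 24 h Klf2 was lower than untreated by -1.02 ± 0.22 log2 in heterozygous (0.493-fold, adjusted p = 0.0198), -1.01 ± 0.22 in homozygous (0.496-fold, 0.0171) and -1.05 ± 0.22 in wt cells (0.482-fold, 0.012), by limma. The heterozygous call was lost with any 1 array left out (-1.18 to -0.86), the homozygous one without either untreated array (-1.12 and -0.90) or 24 h replicate 1 (-0.83), and the wt one without untreated replicate 2 (-0.70) or 24 h replicate 2 (-0.95). The fall from 4 h to 24 h was steadier, at -1.76 ± 0.22, -1.70 ± 0.22 and -1.72 ± 0.22 (adjusted p = 0.000259, 0.000272 and 0.000384 by limma) in heterozygous, homozygous and wt cells, and passed with any 1 array left out.

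Klf4 did not pass at 4 h and was lower at 24 h. It read 11.13 and 11.11 untreated, 10.79 and 11.02 at 4 h and 10.50 and 10.11 at 24 h in heterozygous cells. The homozygous arrays gave 11.24 and 10.95, then 10.98 and 10.88, then 10.44 and 10.50, and in wt cells 11.12 and 11.11, then 10.82 and 11.12, then 10.40 and 10.43. Untreated and 4 h arrays overlap in homozygous and wt cells, and all arrays at 24 h lie below both. At 24 h Klf4 was lower by -0.81 ± 0.14 log2 (0.57-fold, adjusted p = 0.00492), -0.63 ± 0.14 (0.648-fold, 0.0183) and -0.70 ± 0.14 (0.616-fold, 0.00895) in heterozygous, homozygous and wt cells, by limma. A second probe set gave -0.73, -0.92 and -0.87, all called. The calls of the brighter one were lost in heterozygous cells without 24 h replicate 2 (-0.62), in homozygous cells without untreated replicate 1 (-0.48) or either 24 h array (-0.60 and -0.66) and in wt cells without either 24 h array (-0.68 and -0.71). At 4 h the brighter probe set stood at -0.21, -0.17 and -0.14 and the second at 0.22, 0.01 and -0.09, none called, so the sign of that small difference depends on the probe set in both mutants. Between 24 h and 4 h Klf4 was lower by -0.60 ± 0.14, -0.46 ± 0.14 and -0.55 ± 0.14 (adjusted p = 0.00807, 0.0251 and 0.0114 by limma), and these calls rest on single arrays too. The homozygous one was lost with any 1 array left out (-0.51 to -0.41), the heterozygous one without replicate 2 of 4 h (-0.48) or of 24 h (-0.41), and the wt one without 4 h replicate 2 (-0.40) or 24 h replicate 1 (-0.54).

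The promoter windows of Klf2 and Klf4 are shown because both hold the 9-base EGR site GCGGGGGCG (either strand), in capitals, which 2.57% of the 32851 windows hold. It begins at base -199 of Klf2, on chromosome 8 at chr8:72318812-72319061 (plus strand), and at base -194 of Klf4, on chromosome 4 at chr4:55532476-55532725 (minus strand), as its reverse complement.
Klf2: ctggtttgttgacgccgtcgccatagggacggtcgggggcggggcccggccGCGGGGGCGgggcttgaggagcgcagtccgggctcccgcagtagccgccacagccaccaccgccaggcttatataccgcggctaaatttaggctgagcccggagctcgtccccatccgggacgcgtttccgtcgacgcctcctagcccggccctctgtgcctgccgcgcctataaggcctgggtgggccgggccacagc
Klf4: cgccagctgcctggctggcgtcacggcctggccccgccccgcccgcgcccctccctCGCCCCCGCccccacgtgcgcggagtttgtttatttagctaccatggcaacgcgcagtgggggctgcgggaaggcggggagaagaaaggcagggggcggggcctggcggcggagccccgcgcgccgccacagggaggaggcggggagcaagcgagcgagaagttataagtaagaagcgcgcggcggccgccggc
In both windows the EGR site overlaps a GC box (GGGCGG), of which Klf2 holds 2 and Klf4 holds 4, and 32.7% of all windows hold at least 1. Neither window, nor that of Klf6, has a CArG box, which says only that those letters are not in these 250 bases.

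Klf10, the TGFb-inducible early gene, rose at 4 h in every genotype. It read 10.03 and 9.88 untreated, 10.77 and 10.77 at 4 h and 10.10 and 10.07 at 24 h in heterozygous cells. The homozygous values were 10.09 and 9.90, then 10.91 and 10.87, then 10.14 and 10.19, and in wt cells 9.50 and 9.83, then 10.58 and 10.75, then 9.99 and 10.11. All 6 arrays at 4 h lie above the other 12. The rise was 0.81 ± 0.12 log2 (1.76-fold, adjusted p = 0.000541) in heterozygous, 0.89 ± 0.12 (1.86-fold, 0.000208) in homozygous and 1.0 ± 0.12 (1.99-fold, 0.000243) in wt cells by limma, and held with any 1 array left out. Between 24 h and 4 h Klf10 was lower by -0.69, -0.72 and -0.61, called with any 1 array left out too. At 24 h the values above untreated were 0.13 ± 0.12, 0.17 ± 0.12 and 0.38 ± 0.12, none called (adjusted p = 0.751, 0.532 and 0.0628 by limma). The 24 h arrays still lay above the untreated arrays of every genotype without overlap, and the wt value was 0.55 without untreated replicate 2.

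Klf6 had the fewest calls of the 10 genes by its brightest probe set. Over the 18 arrays it read 11.36 to 12.19 with a median of 11.70, and the group means spanned 0.52 log2. The differences at 4 h were 0.31 ± 0.15, 0.06 ± 0.15 and 0.18 ± 0.15 log2 in heterozygous, homozygous and wt cells, and none passed. In wt cells the 2 arrays at 4 h stood apart at 12.19 and 11.61, and the value ran from -0.11 without replicate 1 to 0.47 (adjusted p = 0.0306) without replicate 2. The 1 call of this probe set was the lower level at 24 h than at 4 h in heterozygous cells (-0.48 ± 0.15, adjusted p = 0.0301), which was lost without 4 h replicate 2 (-0.33) or either 24 h array (-0.44 and -0.52).

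The 5 Klf6 probe sets did not all give this result. The third brightest, an _s_at probe set, rose at 4 h by 0.43 ± 0.14 log2 in heterozygous (adjusted p = 0.0358) and 0.43 ± 0.14 in homozygous cells (0.0266) and was at 0.25 ± 0.14 in wt cells, not called, by limma. It was lower at 24 h than at 4 h in all 3 genotypes (-0.72, -0.74 and -0.42, with adjusted p = 0.00263, 0.00187 and 0.0344). Over the 18 arrays the other 4 correlated with the brightest one at r = 0.79, 0.90, 0.92 and 0.29, the last being the dimmest and one of the array's cross-hybridizing class by its _x_at name. The second brightest was lower at 24 h than at 4 h in homozygous cells (-0.50 ± 0.17, adjusted p = 0.035 by limma), where the brightest was not called. By contrast both Egr2 probe sets correlated at r = 1 to the 2 digits kept and both Klf4 probe sets at 0.86.

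**Figure D3:**
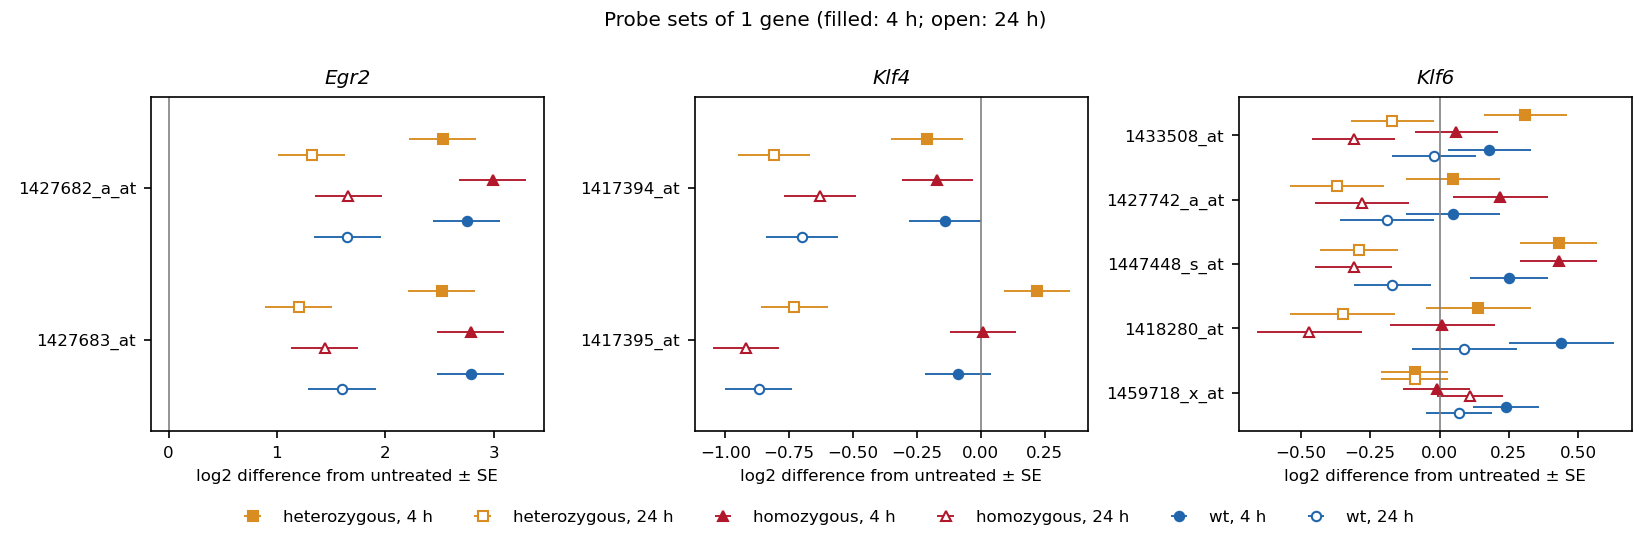
Log2 difference from untreated (x axis, point ± SE of the limma fit, 2 arrays against 2) of each kept probe set (rows) of Egr2, Klf4 and Klf6, by genotype (symbol) and time (filled at 4 h, open at 24 h). Both Egr2 probe sets lie right of 0 at both times and both of Klf4 left of it at 24 h, while the 5 of Klf6 spread from -0.09 to 0.44 at 4 h.

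Ier2 rose at 4 h and was not called against untreated at 24 h. It read 10.04 and 10.11 untreated, 11.05 and 11.29 at 4 h and 9.94 and 9.94 at 24 h in heterozygous cells. The homozygous arrays gave 10.21 and 10.17, then 11.24 and 11.31, then 9.99 and 9.91, and in wt cells 9.87 and 10.36, then 11.06 and 11.04, then 10.02 and 9.71. All 6 arrays at 4 h lie above the other 12. The rise was 1.10 ± 0.15 log2 (2.14-fold, adjusted p = 0.000323) in heterozygous, 1.08 ± 0.15 (2.12-fold, 0.000252) in homozygous and 0.94 ± 0.15 (1.91-fold, 0.00145) in wt cells by limma, with any 1 array left out too. Between 24 h and 4 h it was lower by -1.23, -1.32 and -1.19, and these calls held likewise. At 24 h the differences from untreated were -0.13, -0.24 and -0.25, none called. The 24 h arrays lay below the untreated arrays without overlap in both mutants and overlapped them in wt cells. The wt value was -0.50 without untreated replicate 1.

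Arc was above log2 5 only at 4 h. It read 2.22 to 2.29 on all 12 untreated and 24 h arrays, and at 4 h 4.33 and 6.84 in heterozygous, 6.28 and 6.94 in homozygous and 4.83 and 6.31 in wt cells. The 4 h arrays all lie above the other 12, but 1 heterozygous and 1 wt array stayed under log2 5, so sizes there are uncertain. Arc was called higher at 4 h than untreated in heterozygous (adjusted p = 0.00275), homozygous (0.00038) and wt cells (0.0047) by limma. Those p-values belong to the fitted differences from values under log2 5, and Arc was kept only through its 4 h arrays. Set against log2 5 as the lowest level taken as measured, it was at least 3.05-fold higher in homozygous cells. The same step gave 1.5-fold in heterozygous and 1.49-fold in wt cells, from means that include the array under log2 5. The wt call was lost without 4 h replicate 2 (adjusted p = 0.0517). At 24 h Arc was at least 3.05-fold lower than at 4 h in homozygous cells, with 1.5- and 1.49-fold from the same means in heterozygous and wt cells. No fold is given between 24 h and untreated, where both lie under that level.

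Myc was higher at 4 h by small amounts. It read 10.64 and 10.66 untreated, 10.82 and 11.28 at 4 h and 10.53 and 10.65 at 24 h in heterozygous cells. In homozygous cells it read 10.66 and 10.55, then 11.05 and 10.94, then 10.57 and 10.48, and in wt cells 10.56 and 10.38, then 11.06 and 10.92, then 10.78 and 10.91. In the mutants the 24 h arrays overlap the untreated ones, while both wt arrays at 24 h lie above the wt untreated arrays. The difference at 4 h was 0.40 ± 0.13 log2 (1.32-fold, adjusted p = 0.0411) in heterozygous, 0.39 ± 0.13 (1.31-fold, 0.0357) in homozygous and 0.52 ± 0.13 (1.43-fold, 0.0205) in wt cells by limma. The homozygous call was lost with any 1 array left out (0.34 to 0.45), the heterozygous one without either untreated array (0.39 and 0.41) or 4 h replicate 2 (0.17), and the wt one without untreated replicate 2 (0.43) or 4 h replicate 1 (0.45). Between 24 h and 4 h Myc was lower in heterozygous (-0.46 ± 0.13, adjusted p = 0.0203) and homozygous cells (-0.47 ± 0.13, 0.0165) but not called in wt cells (-0.15 ± 0.13) by limma, and the heterozygous call held only without 4 h replicate 1 and the homozygous call only without 4 h replicate 2. From untreated at 24 h Myc stood at -0.06 ± 0.13, -0.08 ± 0.13 and 0.37 ± 0.13, none called.

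Across genotypes the untreated levels differed in no member that passed the test. Of the 10 genes 0 were called in heterozygous against wt cells (background 0.496% higher, 0.0897% lower, 0.586% either way), 0 in homozygous against wt cells (0.564%, 0.179% and 0.744%) and 0 in homozygous against heterozygous cells (0%) by limma, with 2, 3 and 1 at an unadjusted p under 0.05. Klf2 averaged 9.71 in heterozygous and 9.95 in homozygous against 9.27 in wt untreated cells. The arrays of both mutants lie above both wt arrays (0.45 and 0.68, adjusted p = 0.596 and 0.155 by limma). Egr1 averaged 11.81 in homozygous against 11.50 in wt untreated cells, also without overlap (0.31, adjusted p = 0.212 by limma). The share of all probe sets without overlap was not computed. Klf10 averaged 9.96 and 10.00 in the 2 mutants against 9.67 in wt (0.29 ± 0.12 and 0.33 ± 0.12, adjusted p = 0.482 and 0.183), with no overlap in either case. Egr2 averaged 11.02 in heterozygous and 10.69 in homozygous against 10.27 in wt cells, with overlap (0.75 ± 0.31 and 0.42 ± 0.31, adjusted p = 0.494 and 0.533). The heterozygous value passed without wt untreated replicate 1 (1.24, adjusted p = 0.0439) and the homozygous one turned to -0.07 without wt untreated replicate 2, so both values rest on the wt arrays, at 10.76 and 9.78.

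The response to TGFb1 was not shown to differ by genotype for any member. In the 4 tests of mutant response minus wt response, at 4 h and at 24 h for each mutant, 0 members and 0% of all probe sets passed by limma, and only Myc at 24 h had an unadjusted p under 0.05, in both mutants. Its response at 24 h differed by -0.43 ± 0.19 log2 in heterozygous and -0.45 ± 0.19 in homozygous cells from that in wt cells (95% intervals -0.84 to -0.03 and -0.85 to -0.04, adjusted p = 0.999 and 0.791). For Egr3 at 24 h the difference was 1.03 ± 0.67 in heterozygous and 0.64 ± 0.67 in homozygous cells, with intervals of -0.42 to 2.47 and -0.81 to 2.09. For Egr2 at 4 h it was -0.22 ± 0.44 and 0.24 ± 0.44, with intervals of -1.17 to 0.73 and -0.71 to 1.19.

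Ordered by group mean, the 10 genes fall into few shapes. For Egr2, Klf10, Ier2 and Arc the 3 groups at 4 h took the top 3 of the 9 places, as they did for Egr3, Klf6 and Myc, while Klf4 had its 3 untreated groups on top. Egr1 had the 24 h groups as its last 3 (10.33, 10.30 and 10.16 in homozygous, heterozygous and wt cells), and so had Egr3, Klf2, Klf4 and Ier2. At 4 h the homozygous mean was the highest of the 3 for Egr1, Egr2, Egr3, Klf2, Klf10, Ier2 and Arc, and its arrays overlapped those of the next genotype at 4 h except for Egr1 and Klf10. This order was neither tested nor set beside that of all probe sets, so it shows no difference between genotypes. Neighbours in the order overlapped for Egr2 among the 3 untreated groups and among heterozygous and homozygous cells at each time.

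The genes whose level followed a member most closely over the 18 arrays were different for different members. Egr2 tracked Vegfa, the angiogenic growth factor (Pearson r = 0.979), and Pdgfb, a growth factor for mesenchymal cells (0.969), while Egr1 tracked Mgst1, a microsomal glutathione transferase (0.959), and Islr (0.956). Ier2 tracked the antiproliferative immediate early gene Btg2 and the amino acid transporter Slc43a1 (0.987 each), and Klf10 tracked Junb (0.967), an AP-1 subunit, and Eva1a (0.964). Arc tracked Enc1 (0.973) and Sh3gl1 (0.970), Klf2 tracked Arf2 (0.951) and Hacd2 (0.948), and Klf4 tracked Efemp1 (0.939) and Slc43a3 (0.923). Egr3 tracked Glrx and Cd9 (0.937 each), Klf6 tracked Pex5 (0.915) and Ipo7 (0.896), and Myc tracked Tspan2 (0.926) and Dusp5 (0.893), a nuclear MAP kinase phosphatase. Among members, Egr1 correlated with Egr3 at 0.91, with Klf2 at 0.89 and with Klf4 at 0.89, but with Egr2 at -0.02. Some of these values rest in part on levels under log2 5. Slc43a1 read 3.85 to 5.39, and Pdgfb and Islr went down to 4.31 and 3.99. Arc was at or over log2 5 on only 4 of the 18 arrays, all at 4 h. All the correlations share the same 9 groups and arrays and are given as a description.

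Other genes of the same pathway were listed by role, 49 in all, of which 41 had a kept probe set. Of 14 kept immediate early genes that are no members, 11 were higher at 4 h in heterozygous, 12 in homozygous and 12 in wt cells, and none was lower. Over all probe sets 13.8%, 17.4% and 7.64% were higher in the same order. Nr4a3, kept only through arrays at 4 h, is in the counts of both mutants, and without it 10, 11 and 12 of 13 were higher. Their median at 4 h over the 13 with both groups measured was 0.73, 0.77 and 0.91 log2. Maff, a small MAF factor, rose by 2.43 ± 0.19, 2.67 ± 0.19 and 1.93 ± 0.19 log2 (adjusted p = 9e-06, 5.17e-06 and 7.92e-05 by limma), and Csrnp1 by 1.81 ± 0.17, 1.67 ± 0.17 and 1.35 ± 0.17 (2.58e-05, 3.27e-05 and 0.000307), in heterozygous, homozygous and wt cells. Btg2 rose by 1.61 ± 0.16 in heterozygous and 1.30 ± 0.16 in wt cells, and Ier3 by 1.75 ± 0.17 in homozygous cells (adjusted p = 4.46e-05, 0.000327 and 2.35e-05). Nr4a3 was called in homozygous cells (adjusted p = 0.00168 by limma, for the fitted difference) and was at least 1.38-fold higher there when set against log2 5. In heterozygous cells both of its groups averaged under log2 5.

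At 24 h only 1 of the 14 was lower and 1 higher in each genotype. Of all probe sets 2.84%, 4.18% and 5.03% were lower and 2.24%, 2.25% and 4.11% higher in heterozygous, homozygous and wt cells. The orphan nuclear receptor gene Nr4a1 was lower by -2.15 ± 0.19, -2.05 ± 0.19 and -1.70 ± 0.19 log2 in heterozygous, homozygous and wt cells (adjusted p = 6.09e-05, 6.68e-05 and 0.000203 by limma), and the polo-like kinase gene Plk2 was higher by 0.68 ± 0.08, 0.65 ± 0.08 and 0.89 ± 0.08 (0.00053, 0.000688 and 6.44e-05). Between 24 h and 4 h, 12, 12 and 11 of the 14 were lower and 1 higher in each genotype, and 11, 11 and 10 of 13 were lower without Nr4a3. The shares of all probe sets that were lower were 15%, 18.9% and 15.7%.

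The rest of the EGR and KLF families moved both ways. Of 10 kept genes 2 were higher and 4 lower at 4 h in heterozygous, 2 and 4 in homozygous and 2 and 3 in wt cells. The shares of all probe sets at 4 h were 13.8% higher and 12.7% lower, 17.4% and 17.6%, and 7.64% and 9.48%. Klf13 rose by 1.49 ± 0.22 log2 in wt cells (2.82-fold, adjusted p = 0.00107), with 1.52 in heterozygous and 1.30 in homozygous cells, both called. Klf12, a KLF repressor named here after its values were seen, was lower by -1.34, -1.28 and -1.13 in heterozygous, homozygous and wt cells, all called. At 24 h Klf7 was lower in heterozygous cells (-0.66 ± 0.17, adjusted p = 0.0397) and Klf3 in wt cells (-0.32 ± 0.09, 0.0411) by limma. Of the 2 EGR corepressor genes, both were lower in homozygous cells at 4 h and 24 h, and at 24 h Nab1 was lower by -0.54 ± 0.12 (adjusted p = 0.0205) and Nab2 by -0.96 ± 0.24 (0.0309). In heterozygous cells Nab1 alone passed, at 24 h (-0.47 ± 0.12, adjusted p = 0.0491), and in wt cells neither did at either time, with values of -0.36 and -0.61 at 4 h and -0.38 and -0.74 at 24 h.

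Of the 6 genes of serum response factor and its partners, 2 were higher and 0 lower at 4 h in heterozygous, 3 and 1 in homozygous and 2 and 1 in wt cells. These counts and those of the Myc list below stand beside 13.8% of all probe sets higher and 12.7% lower in heterozygous cells. In homozygous cells the shares were 17.4% and 17.6%, and in wt cells 7.64% and 9.48%. Srf itself, named after its values were seen, rose by 1.37, 1.44 and 0.85 log2 in heterozygous, homozygous and wt cells, all called. Of 9 kept partners and antagonists of Myc, 1 was higher and 2 lower at 4 h in heterozygous, 1 and 3 in homozygous and 0 and 1 in wt cells, and none was called at 24 h. The lists were drawn up with results of these data known, so their counts are a description.

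**Figure D4:**
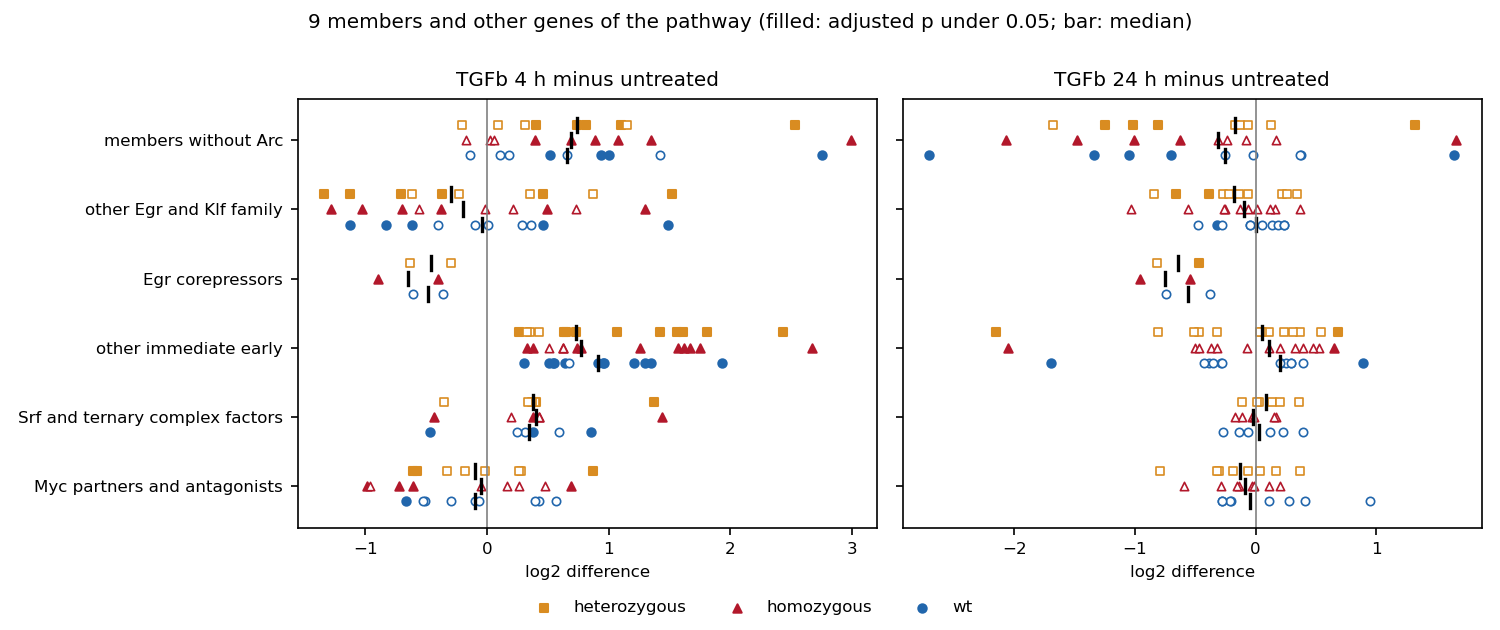
Log2 difference from untreated (x axis) at 4 h (left) and 24 h (right) for 9 members and the other genes of 5 lists (rows), by genotype (symbols, 1 point a gene). Filled points passed an adjusted p of 0.05, black bars are medians, and genes with a group under log2 5 are left out. At 4 h the other immediate early genes lie right of 0 and the 2 corepressor genes left of it.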

How the data were processed

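Per the labels, total RNA (2 ug per sample) was amplified once and hybridised to 18 Affymetrix mouse arrays. Per the submitters' processing notes the authors deposited GCRMA intensities, on a linear scale, with no version stated, and no batch was modelled, as neither labels nor headers give one. The intensity values were taken to log2 with no further normalization. Probe sets of at least log2 5 on at least 2 arrays were kept. In R 4.3.3, limma 3.58.1 fitted a mean for each of the 9 groups to all 18 arrays (9 residual degrees of freedom, eBayes with an intensity trend), with Benjamini-Hochberg adjustment over 18958 probe sets in each of 16 comparisons. Each array had 39.5 to 40.3% of probe sets above log2 5, and the number of arrays limits the precision. On simulated data for wt at 4 h over 18958 probe sets, 35.8%, 59.7% and 98.5% of 1.5-, 2- and 4-fold changes were recovered, with 3 false calls. The simulation changed 67, 67 and 66 probe sets, far fewer than the 3246 called in the data, so recovery at the cutoff of the data was not measured. Probe sets were named from the platform annotation, with 34945 having 1 symbol, 932 several and 9160 none, and 34754 matched a RefSeq gene table. Of the 10 members, 4 matched a RefSeq promoter window. A group with both arrays below log2 5 gets a bound. The members and all lists were chosen with earlier results of these data known. Among other pathway genes, up to 4 called genes with the largest change per response are named, and for each member the 2 genes with the highest Pearson correlation, predicted genes and clones left out. Alternatives were other filters, log2 of the value plus 16, quantile normalization, fits by gene, by the groups compared or without a trend, array weights, a replicate block and each array left out.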

Additional observations from a re-analysis of the deposited data

How the results depend on the processing

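Of the 59 called results of a member, all kept their call with 1 probe set a gene, with probe sets averaged by gene and on log2 of the value plus 16, and all of the 53 that could be recomputed kept it with a mean log2 of at least 6, a filter that removed Arc. The block by replicate number ended 1, quantile normalization 2, a fit without intensity trend 2, array weights 7, no filter 11, the fit of only the groups compared 24, and leaving out 1 array 69 of 236. With only the groups compared, the members called were 0 in wt cells at 4 h, 0 at 24 h and 0 between 24 h and 4 h (6, 6 and 8 at an unadjusted p under 0.05 in limma), and 2 in heterozygous cells at 24 h. Those fits called 0, 3 and 0 of 18958 probe sets in wt cells and 4.49% in heterozygous cells at 24 h. Array weights gave 3 in wt cells at 4 h and 2 at 24 h, beside 1.26% and 2.45% of all probe sets. Without the filter 2 were called in heterozygous cells at 24 h and 4 in homozygous cells at 4 h, beside 1.43% and 11.9% of all probe sets. With 1 array left out, the counts at 24 h ran from 1 to 3 in heterozygous, 2 to 3 in homozygous and 2 to 6 in wt cells. They were 4 in each such fit in homozygous cells at 4 h, 6 to 9 in heterozygous cells between 24 h and 4 h, and 0 to 1 in untreated heterozygous against wt cells. The share of all probe sets called changed with these settings too, and the cause of the changes was not tested.

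No called member turned its direction. Among values that were not called, the difference at 4 h in heterozygous cells turned to 0.01 for Klf4 with the mean of its probe sets, and quantile normalization gave -0.06 for Egr1 and 0.0 for Klf6 in homozygous cells. With 1 array left out, Egr1 at 4 h in homozygous cells ran from -0.04 to 0.09, and in wt cells Klf4 at 4 h ran from -0.29 to 0.0, Klf6 at 4 h from -0.11 to 0.47 and Klf6 between 24 h and 4 h from -0.49 to 0.09. Egr2 in untreated homozygous against wt cells ran from -0.07 to 0.91, and its response at 4 h minus that of wt cells from -0.71 to 0.27 in heterozygous and from -0.25 to 0.73 in homozygous cells. Same-numbered arrays of a genotype deviated together at r = 0.23 to 0.44 in heterozygous and 0.54 to 0.61 in homozygous cells, and at 0.51 between 4 h and 24 h in wt cells, but at -0.39 and -0.58 between untreated and treated wt arrays. The labels do not say that a number marks a shared culture, so no pairing was used in the values above. With the replicate block, 6, 7 and 5 members were called at 4 h, 3, 5 and 6 at 24 h and 10, 9 and 8 between both times in heterozygous, homozygous and wt cells. Of all probe sets that block called 27.4%, 35.6% and 18.9%, then 5.47%, 7.08% and 9.78%, then 29.6%, 34.0% and 32.9%. With the numbers of the wt untreated arrays crossed, a pairing chosen after seeing the data, the counts were 6, 7 and 7 at 4 h, 5, 5 and 5 at 24 h and 10, 10 and 8 between both times, in the same order of genotypes. The shares of all probe sets were then 34.0%, 42.8% and 24.5%, 9.33%, 11.6% and 15.5%, and 36.8%, 41.0% and 40.7%. With 2 arrays a group, 35.8% of simulated 1.5-fold and 59.7% of simulated 2-fold changes were recovered for wt cells at 4 h. A member that was not called is thus not shown to be unchanged.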

Other observations

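Xist, the RNA of the inactive X chromosome, differed within each wt and each homozygous pair of arrays, at 11.27 to 11.88 log2 on 1 array and 1.58 to 2.68 on the other, while all 6 heterozygous arrays read 11.32 to 11.77. In wt cells the high array was replicate 1 among the untreated and replicate 2 at 4 h and at 24 h. The Y-linked gene Eif2s3y went the other way within each pair, at 10.41 to 10.82 on the Xist-low and 2.86 to 4.37 on the Xist-high arrays. The 2 arrays of such a pair thus hold cells of different sex. Eif2s3y read 2.87 to 4.58 on the heterozygous arrays, so genotype and sex cannot be fully told apart where these are compared with other genotypes. Egr2 was higher on the Xist-high wt array at each time, by 0.98 untreated, 0.26 at 4 h and 0.91 at 24 h, and differed by 0.11, 0.18 and -0.07 within the homozygous pairs. The part of this split in the wt values of Egr2 was not tested.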
